A study of Arabidopsis thaliana with 20 samples.

Results

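The nuclear photosynthesis genes are a set of 51 Arabidopsis genes, of 37184 genes in the count tables, that encode the light-harvesting antenna of photosystem II (15 genes) and photosystem I (6 genes), subunits of photosystem I (12 genes) and photosystem II (10 genes), carriers of the electron transfer chain between them (3 genes), and the small subunit of Rubisco with Rubisco activase (5 genes). They were chosen by what they encode and not by their values here. Their transcripts were measured by 3′RNA-seq, in which reads come from the 3′ ends of transcripts, in 4 libraries of *msh-1* and 4 libraries of WT. The *msh-1* line carries a homozygous T-DNA insertion in the transcriptional unit of *MUSHER*, a long non-coding RNA gene next to the dormancy gene *DOG1*, and WT is Col-0, the background of *msh-1*. Only 1 insertion line was sequenced, and *MUSHER* itself was not analysed here. According to the labels the material was siliques taken 13 to 20 days after pollination, whereas the text of the study speaks of freshly harvested seeds. All plants grew on soil in a greenhouse in long days, with 16 h of light at 22 °C and 8 h of darkness at 18 °C. The study calls the libraries of a genotype biological replicates, the labels do not say which plants they came from, and the p-values below measure the spread between these libraries.

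Photosynthesis rests on proteins of both the chloroplast and the nuclear genome. The reaction centre cores and the large subunit of Rubisco are made in the chloroplast, while the chlorophyll-binding antenna, many peripheral subunits and the small subunit of Rubisco are encoded in the nucleus and imported. Arabidopsis embryos are green during mid-maturation, when they photosynthesise inside the silique, and lose their chlorophyll as the seed dries. The nuclear genes are known for strong and coordinated regulation by light, by sugars and by signals from the plastid.

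A group of these genes lies next to each other in the genome. *LHCB1.1*, *LHCB1.2* and *LHCB1.3* are neighbours on chromosome 1, *LHCB1.4* and *LHCB1.5* on chromosome 2, and *RBCS1B*, *RBCS2B* and *RBCS3B* on chromosome 5. The 150 bases before the annotated start of 5 genes are printed here, since these genes or their neighbours had the widest differences between the genotypes described below. They were read from RefSeq's TAIR10.1, 5′ to 3′ on the strand of the gene. The deposited counts carry no coordinates, so the build of the counts was not compared with it. Capitals mark the G-box CACGTG and the I-box GATAAG on either strand, both known from promoters of light-regulated genes.
RBCS2B (AT5G38420), chr5:15382072-15382221, minus strand: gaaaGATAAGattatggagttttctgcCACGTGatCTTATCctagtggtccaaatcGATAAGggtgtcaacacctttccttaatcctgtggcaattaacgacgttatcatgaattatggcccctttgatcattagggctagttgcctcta
RBCS3B (AT5G38410), chr5:15378643-15378792, minus strand: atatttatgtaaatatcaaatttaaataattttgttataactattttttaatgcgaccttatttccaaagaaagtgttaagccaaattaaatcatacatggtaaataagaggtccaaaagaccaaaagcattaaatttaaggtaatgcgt
LHCB1.1 (AT1G29920), chr1:10475970-10476119, minus strand: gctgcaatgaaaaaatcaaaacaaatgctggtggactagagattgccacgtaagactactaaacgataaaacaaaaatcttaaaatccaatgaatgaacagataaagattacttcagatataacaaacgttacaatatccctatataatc
PSBQ2 (AT4G05180), chr4:2673244-2673393, minus strand: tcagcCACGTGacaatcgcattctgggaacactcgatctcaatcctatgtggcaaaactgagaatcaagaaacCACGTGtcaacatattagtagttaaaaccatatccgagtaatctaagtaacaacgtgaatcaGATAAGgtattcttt
RCA (AT2G39730), chr2:16573693-16573842, minus strand: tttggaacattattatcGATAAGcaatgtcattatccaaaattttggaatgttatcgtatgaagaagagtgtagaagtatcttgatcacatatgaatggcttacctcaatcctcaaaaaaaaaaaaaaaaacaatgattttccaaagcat

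Within 250 bases before the start, a G-box was found in 10 of the 51 members (19.6%), against 6.49% of 27438 protein-coding genes. An I-box was found in 13 members (25.5%), against 12.3% of all. The neighbours differed: *RBCS2B* had 1 G-box and 3 matches to the I-box, and *RBCS3B* and *LHCB1.1* had neither. *RCA*, which was lower in *msh-1* in part of the comparisons below, had a single I-box. These matches describe the letters of the window.

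Depth differed between the genotypes. The libraries held 2590800 to 6500907 counts in *msh-1* and 959004 to 2498295 counts in WT, so that a single count stood for 0.160 to 0.382 counts per 1e6 counts (CPM) in *msh-1* and for 0.400 to 1.1 CPM in WT. CPM were scaled by edgeR's TMM factors. Every member had a count in at least 1 library. After edgeR's filter on low counts, which kept 10902 genes, 35 of the 51 members could be tested. *RBCS3B* passed that filter through its *msh-1* libraries alone. The other 16 members had 3 to 105 counts over all libraries and are given below by their counts.

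The members were sparse transcripts in this material, and 2 libraries stood apart. Summed over the 51 genes, their level was 298, 670, 614 and 627 CPM in *msh-1* 1 to 4, against 612, 553, 539 and 226 CPM in WT 1 to 4. The 95% Poisson intervals, which cover counting error only, ran from 285 to 312 CPM in *msh-1* 1 and from 196 to 259 CPM in WT 4, and lay below those of every other library. The groups overlapped, and the sum of *msh-1* over WT was 0.20 on the log2 scale. The sum changed sign to -0.04 without WT 4 and was 0.41 without *msh-1* 1. In RNA from whole organs, fewer cells of a type and less RNA per cell cannot be told apart.

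**Figure D1:**
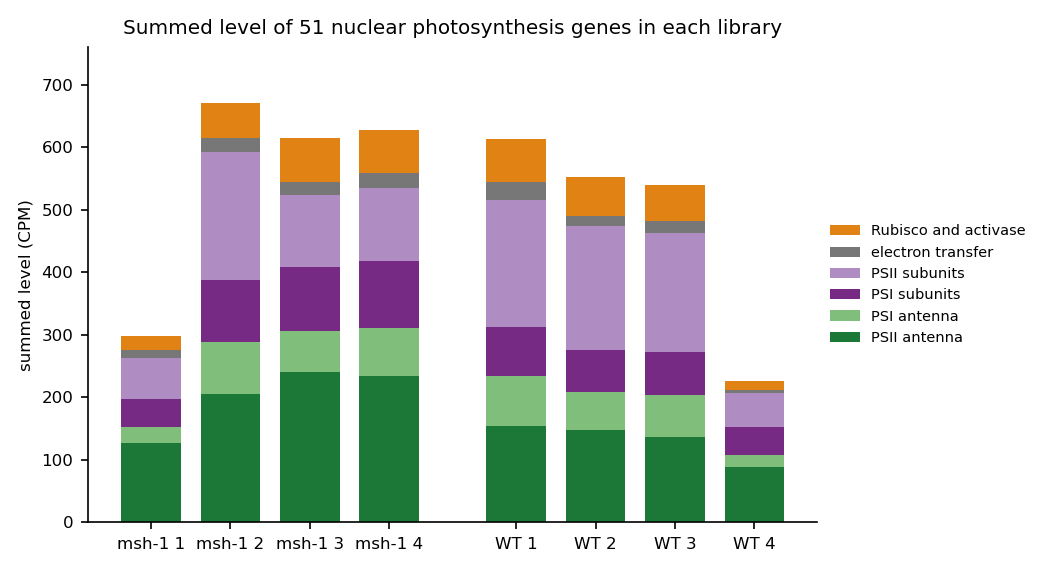
Summed CPM (y axis) of the 51 nuclear photosynthesis genes in each of the 4 *msh-1* and 4 WT libraries (x axis), stacked by the role of the encoded protein. *msh-1* 1 (298 CPM) and WT 4 (226 CPM) lie below the other 6 libraries, which range from 539 to 670 CPM.

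The low level in these 2 libraries ran through most of the genes. *msh-1* 1 was below *msh-1* 2 to 4 in 29 of 35 tested members, against 25.3% of all tested genes, and the median difference on log2(CPM + 0.5) was -1.32, against 0.03 for all genes. WT 4 was below WT 1 to 3 in 29 of 35 members, against 33.7% of all tested genes, and the median difference was -1.52, against 0.01. Both held for 27 members, against 12.9% of all tested genes. Among them were all 5 tested antenna genes of photosystem I and all 6 tested subunits of photosystem II. In WT 4 the depth was the lowest of the series, and 21 of the 35 members had at most 3 counts there, 4 of them none.

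The other 8 tested members were *LHCB4.1*, *LHCB4.2*, *LHCB4.3*, *LHCB7*, *RBCS3B*, *PSAD2*, *PSAH1* and *PETC*. *LHCB4.1* (AT5G01530) encodes a minor antenna protein that links the core of photosystem II to its outer antenna. It had 55.7, 41.7, 58.4 and 61.1 CPM in *msh-1* 1 to 4, against 44.7, 64.4, 43.6 and 46.0 CPM in WT 1 to 4, the second highest mean level of the set. *PSAD2* (AT1G03130), for a subunit at the stromal face of photosystem I where ferredoxin docks, had 20.9, 27.5, 30.6 and 27.7 CPM in *msh-1*, against 20.0, 18.4, 27.6 and 25.2 CPM in WT. In *LHCB4.1* each outlying library lay among the others of its genotype. In *PSAD2* this held for WT 4, while *msh-1* 1 was the lowest *msh-1* library. *PSAD1*, the paralog of *PSAD2*, had 1.93, 8.41, 7.42 and 5.92 CPM in *msh-1* and 10.0, 7.95, 8.40 and 1.1 CPM in WT, and followed the larger part of the set.

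**Figure D2:**
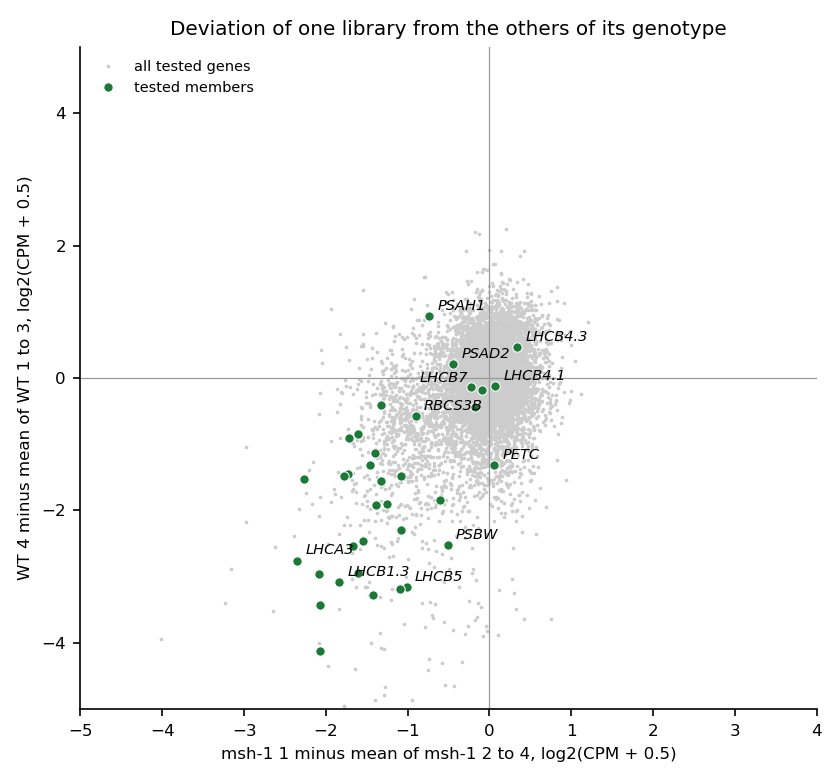
Each point is a gene: the level in *msh-1* 1 minus the mean of *msh-1* 2 to 4 (x axis) against the level in WT 4 minus the mean of WT 1 to 3 (y axis), both on log2(CPM + 0.5), for the 35 tested members (green) and for 10902 tested genes (grey, 2 of them outside the axes). Most members lie in the lower left, with medians of -1.32 and -1.52, and *LHCB4.1* and *LHCB7* lie near 0 on both axes.

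Markers of other tissue and of ageing tissue moved with these libraries, and their part in the result was not tested. Of 15 genes listed for the silique wall, valve margin, guard cells and phloem, 12 had a count and 4 were tested. Their summed level was 121 CPM in *msh-1* 1 against 282 to 312 CPM in *msh-1* 2 to 4, and 113 CPM in WT 4 against 276 to 332 CPM in WT 1 to 3. Most of it was *ADPG1*, a polygalacturonase of the dehiscence zone, with 88.1, 267, 237 and 233 CPM in *msh-1* and 277, 239, 280 and 92.0 CPM in WT. The valve margin factor *IND* and the wall thickening factors *NST1* and *NAC012* were at 0 in every library, as far as these depths can show. The summed level of 5 senescence markers was 71.1, 312, 107 and 98.5 CPM in *msh-1* and 418, 367, 348 and 98.6 CPM in WT. This pattern came from *SAG12*, *SAG13* and *XTH24*, whereas *SEN1* of the same list had 52.3, 53.9, 52.6 and 51.1 CPM in *msh-1* and 44.7, 40.6, 35.6 and 60.3 CPM in WT, highest in WT 4. The 15 seed maturation markers, all tested, are genes for storage and oil body proteins with *EM1*, *GEA6* and *PER1*. They summed to 121580, 111761, 104448 and 107190 CPM in *msh-1* 1 to 4. In WT 1 to 4 the sums were 123919, 118948, 122389 and 121476 CPM. The groups overlapped only through *msh-1* 1, and *msh-1* 2 to 4 lay below every WT library.

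The comparison of the genotypes asks whether the insertion in the *MUSHER* unit goes with another level of these transcripts. With all 8 libraries none of the 35 tested members passed the threshold in edgeR's quasi-likelihood test (adjusted p under 0.05 over 10902 genes and a change above 1.5-fold), where 0.413% of all tested genes did. At an unadjusted p under 0.05, 6 members were higher and 2 lower, against 3.99% and 4.49% of all tested genes. Among the 6, *RBCS3B* was above the threshold of the filter in no WT library, and *LHCB1.1*, *LHCB5* and *PSAF* in 2. The filter favoured this direction, so the count of 6 is not read against the background. The median log2 fold change of *msh-1* over WT was 0.11, with 21 members above 0 and 14 below, against a median of -0.01 over all tested genes. limma-voom called none. DESeq2, which tests without that filter, called 3 of 51 members (*LHCB1.2*, *LHCB5*, *RBCS3B*), where 89 of 23028 genes were called.

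Without *msh-1* 1 and WT 4, 9 of 38 tested members were called, where 2.53% of 11088 tested genes were. In these 6 libraries *LHCB1.1*, *LHCB1.3*, *LHCB5*, *RBCS3B*, *PSAG* and *PSBQ2* rose in *msh-1* (6 members, against 0.947% of all tested genes), and *RCA*, *PSBR* and *PSBW* fell (3 members, against 1.58%). Of the 6 that rose, *RBCS3B* and *PSBQ2* were above the threshold of the filter in no WT library and *LHCB1.1*, *LHCB5* and *PSAG* in 2 of 3, so that they passed through *msh-1* and the count of 6 is not read against the background. *LHCB1.3* and the 3 members that fell were above it in all 6 libraries. The 2 libraries were set aside because the same genes were known to be low in them, so these 9 calls describe 3 libraries against 3. The median log2 fold change of the members was then 0.29 (25 above 0, 13 below). Among the markers the same 6 libraries gave calls for *SUC2*, a sucrose transporter of the phloem (log2 fold change 0.91, higher in *msh-1*). The senescence markers *XTH24* (-2.18) and *SAG13* (-1.79) and the seed maturation marker *SESA4* (-0.63) were called lower in *msh-1*. Of the 15 seed maturation markers 13 were below 0 in these libraries, with a median of -0.16, against -0.01 over all tested genes. The part of all these markers in the result was not tested.

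**Figure D3:**
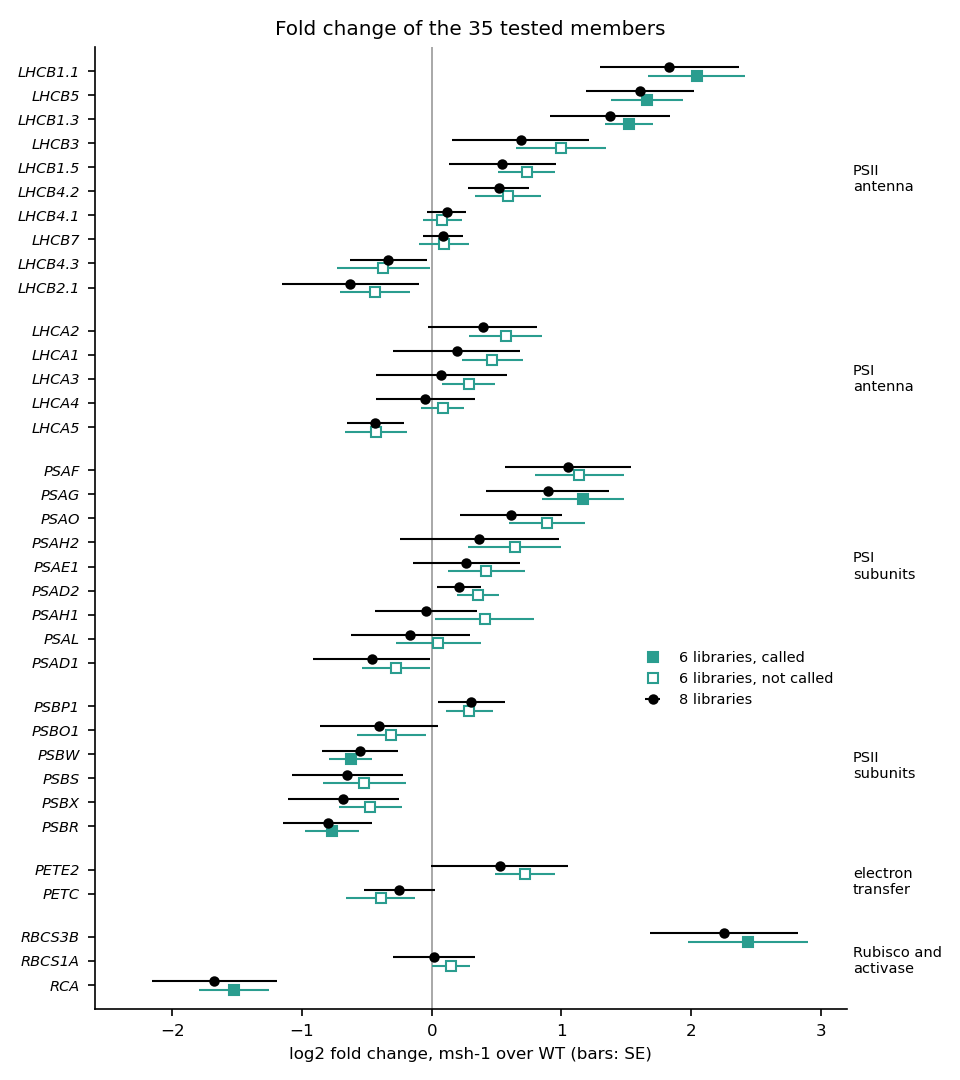
Log2 fold change of *msh-1* over WT with its SE (x axis) for the 35 tested members by role (y axis), from all 8 libraries (black) and without *msh-1* 1 and WT 4 (green squares, filled where called). *RBCS3B*, *LHCB1.1* and *LHCB5* lie furthest to the right (2.26, 1.83 and 1.61 with 8 libraries), *RCA* furthest to the left (-1.68), and 5 of the 6 photosystem II subunits lie below 0.

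In the antenna of photosystem II, 8 of 10 tested genes had a log2 fold change above 0, with a median of 0.53. The *LHCB1*, *LHCB2* and *LHCB3* genes encode the major trimeric light-harvesting complex, and *LHCB4*, *LHCB5* and *LHCB6* the minor monomeric antenna. *LHCB1.1* had 4.65, 8.80, 11.8 and 21.3 CPM in *msh-1* 1 to 4, against 1.54, 4.18, 4.00 and 1.1 CPM in WT 1 to 4. Every *msh-1* library lay above every WT library, and the log2 fold change was 1.83 ± 0.54 (SE, edgeR's adjusted p = 0.241 with 8 libraries; exact two-sided permutation p = 0.0286, the smallest that 4 against 4 libraries allow). *LHCB5* (AT4G10340) had 5.78, 10.7, 12.7 and 13.3 CPM in *msh-1*, against 4.62, 3.35, 4.00 and 0 CPM in WT. These groups did not overlap either, with a log2 fold change of 1.61 ± 0.41 (SE, edgeR's adjusted p = 0.153). The 0 in WT 4 is a count of 0, for which the limit of 3 counts is 3.29 CPM. Of the 35 tested members 3 had groups that did not overlap with *msh-1* higher, and none with *msh-1* lower, against 2.57% and 2.19% of all tested genes. These were *LHCB1.1*, *LHCB5* and *RBCS3B*, which were above the threshold of the filter (3.93 CPM) in 4 *msh-1* libraries each and in 2, 2 and 0 WT libraries, so that the filter favoured this direction and nothing is read from the count.

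*LHCB1.3* (AT1G29930) had 9.95, 36.7, 39.6 and 34.6 CPM in *msh-1*, against 17.7, 8.79, 14 and 1.1 CPM in WT. *msh-1* 1 lay between the WT libraries, and the other 3 *msh-1* libraries lay above all of WT. With 8 libraries the log2 fold change was 1.38 ± 0.46 (SE, edgeR's adjusted p = 0.347), and without *msh-1* 1 and WT 4 it was 1.52 ± 0.19 (SE, edgeR's adjusted p = 1.8e-05). Both libraries were set aside for their low members, and *msh-1* 1 is the *msh-1* library that overlapped WT. The smaller p follows from that choice and is not read as support. *LHCB1.5* (AT2G34420), at 8.83, 45.5, 25.7 and 23.9 CPM in *msh-1* and 21.6, 17.6, 17.6 and 6.57 CPM in WT, did not differ beyond the spread between libraries (log2 fold change 0.55 ± 0.42 SE). *LHCB2.1* and *LHCB4.3* were the 2 genes below 0 in this group (-0.63 ± 0.53 and -0.34 ± 0.30, SE). *LHCB7*, whose protein resembles the antenna proteins and is little studied, was at 13.4 to 15.5 CPM in *msh-1* and 12.1 to 14.6 CPM in WT.

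**Figure D4:**
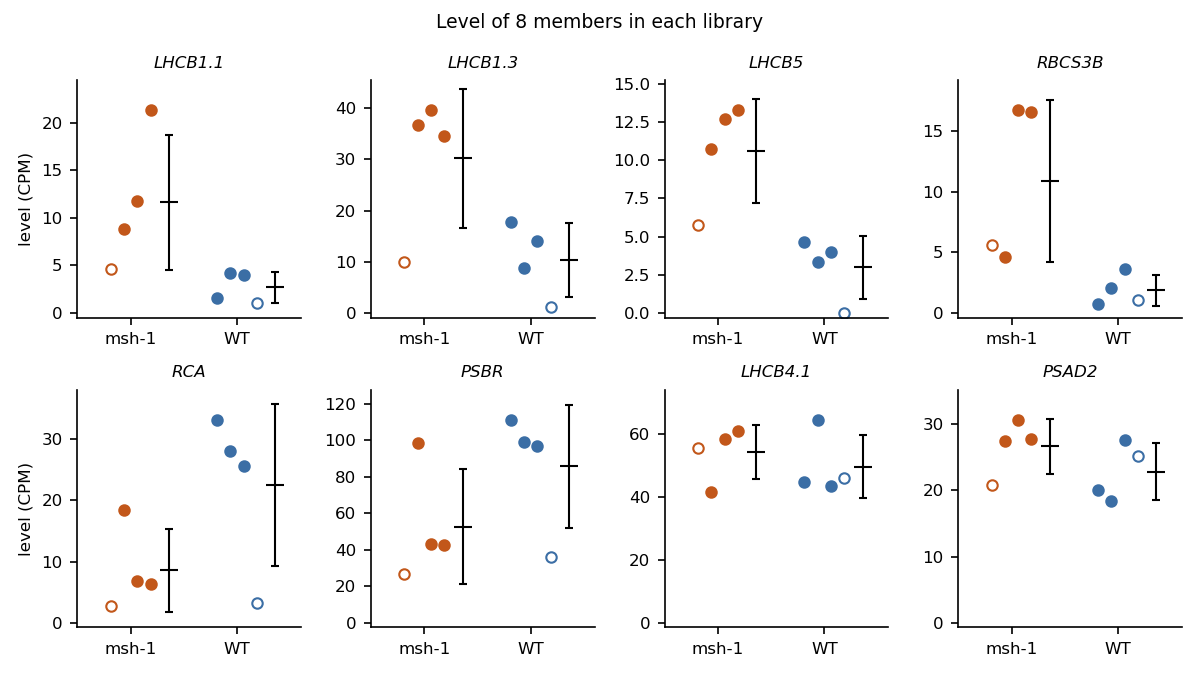
CPM (y axis) of 8 members in each *msh-1* and WT library (points), with the mean and SD of the 4 libraries beside them; open points are *msh-1* 1 and WT 4. *LHCB1.1*, *LHCB5* and *RBCS3B* do not overlap between the genotypes, *RCA* and *PSBR* are low in the open points of both, and *LHCB4.1* and *PSAD2* overlap between the genotypes.

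Within Rubisco and its activase, single genes had log2 fold changes of opposite sign. *RBCS3B*, 1 of 4 genes for the small subunit, had 5.62, 4.59, 16.7 and 16.6 CPM in *msh-1*, against 0.770, 2.09, 3.60 and 1.1 CPM in WT. The groups did not overlap, and the difference was the largest of the tested members (log2 fold change 2.26 ± 0.57 SE, edgeR's adjusted p = 0.143). In WT these values rest on 1, 5, 9 and 1 counts. *RBCS1A* (AT1G67090), the leading gene of the family here, had 12.7, 29.8, 32.8 and 34.8 CPM in *msh-1* and 33.1, 31.8, 25.2 and 9.86 CPM in WT, a log2 fold change of 0.02 ± 0.32 (SE).

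*RCA* encodes Rubisco activase, which removes inhibitory sugar phosphates from the active site. It had 2.73, 18.4, 6.80 and 6.39 CPM in *msh-1*, against 33.1, 28.0, 25.6 and 3.29 CPM in WT. WT 4 lay among the *msh-1* libraries, and WT 1 to 3 lay above all of *msh-1*. The log2 fold change was -1.68 ± 0.48 (SE, edgeR's adjusted p = 0.231; exact permutation p = 0.286). *RCA* was called lower without WT 4 (-1.92, adjusted p = 0.0424) and without *msh-1* 2 (-2.27, adjusted p = 0.0158), the library with the highest *RCA* among *msh-1*. Each library left out was the one of its genotype closest to the other genotype, so these calls are not read as support.

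The subunits of photosystem II were the group with the lowest median log2 fold change (-0.60), and 5 of 6 tested genes were below 0. *PSBR* (AT1G79040), for a small protein that stabilises the oxygen-evolving complex, had the highest level of all members, with 26.5, 98.7, 43.0 and 42.6 CPM in *msh-1* and 111, 99.2, 96.8 and 36.2 CPM in WT. The libraries fell into a high set (WT 1 to 3 and *msh-1* 2) and a low set. With 8 libraries the log2 fold change was -0.80 ± 0.34 (SE, edgeR's adjusted p = 0.541), and without *msh-1* 2 it was -1.27 (adjusted p = 0.0283). Since *msh-1* 2 is the *msh-1* library in the high set, that smaller p follows from the same values and is not read as support. *PSBW* (AT2G30570), for a small membrane subunit, had 12.4, 22.2, 15.2 and 16.8 CPM in *msh-1* and 28.5, 26.4, 28.0 and 4.38 CPM in WT, so that the other 3 WT libraries lay above all of *msh-1*. *PSBW* was called lower only without *msh-1* 1 and WT 4 together (-0.63 ± 0.17 SE, edgeR's adjusted p = 0.0417). That leaves out the WT library that lay below *msh-1*, so the call is not read as support. *PSBP1* (AT1G06680), for a protein of the oxygen-evolving complex, was the gene above 0 (0.31 ± 0.26 SE), at 13.5, 24.1, 19.8 and 18.7 CPM in *msh-1* and 18.5, 17.6, 15.2 and 4.38 CPM in WT. *PSBO1*, *PSBS* (photoprotection) and *PSBX* had log2 fold changes of -0.41, -0.65 and -0.68 and were not called in any setting tried.

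*msh-1* 2 was the highest *msh-1* library in 18 of 35 tested members, against 29.7% of all tested genes, and in all 6 photosystem II subunits. In the photosystem II antenna this held for *LHCB1.5* and *LHCB2.1* only, of 10. The senescence markers *SAG12* (5.14, 108, 20.7 and 17.5 CPM in *msh-1*) and *XTH24* (4.33, 108, 18.2 and 13.0 CPM) were also highest in *msh-1* 2. *XTH24* had 213, 187, 184 and 16.4 CPM in WT, and within each genotype the order of its libraries was that of *RCA*. The part of these markers in the result was not tested.

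The subunits of photosystem I had a median log2 fold change of 0.27, with 6 of 9 tested genes above 0. *PSAF*, for the subunit where plastocyanin docks, had 3.85, 6.12, 11.8 and 9.47 CPM in *msh-1*, against 4.62, 5.86, 2.40 and 0 CPM in WT (log2 fold change 1.05 ± 0.49 SE, edgeR's adjusted p = 0.587). *PSAG* (AT1G55670), for a peripheral membrane subunit, had 2.89, 8.03, 8.66 and 13.7 CPM in *msh-1*, against 3.08, 5.86, 4.40 and 2.19 CPM in WT. Both overlapped only through *msh-1* 1, and *PSAG* was called higher without that library (1.27, adjusted p = 0.0392). This call follows from leaving out the overlapping library and is not read as support. *PSAO*, *PSAH* and *PSAL* encode the subunits near the docking site of the mobile antenna. *PSAO* had a log2 fold change of 0.61 ± 0.40 (SE), *PSAH1* -0.04, *PSAH2* 0.37 and *PSAL* -0.17.

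The antenna of photosystem I had log2 fold changes between -0.43 and 0.39. *LHCA4* (AT3G47470), the most abundant of its transcripts, had 6.90, 18.7, 22.6 and 22.0 CPM in *msh-1* and 22.3, 18.4, 20.4 and 3.29 CPM in WT. The outlying library of each genotype was the low one, and the other 6 lay within 18.4 to 22.6 CPM. *LHCA5*, for a scarce antenna protein, was also lowest in the outlying library of each genotype, by a smaller margin, at 8.67, 12.2, 8.97 and 8.76 CPM in *msh-1* and 18.5, 12.6, 10.8 and 9.86 CPM in WT. Of the carriers between the photosystems, *PETE2*, for the main plastocyanin, had a log2 fold change of 0.53 ± 0.53 (SE), and *PETC*, for the Rieske protein of the cytochrome complex, -0.25 ± 0.28 (SE).

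Levels of the same family were uneven. Since reads come from the 3′ end of a transcript, levels are not divided by length. In the *LHCB1* family the means over 8 libraries were 20.9 CPM for *LHCB1.5*, 20.3 CPM for *LHCB1.3* and 7.17 CPM for *LHCB1.1*. *LHCB4.1* (52.0 CPM) stood above *LHCB4.2* (13.0 CPM) and *LHCB4.3* (4.45 CPM), and *RBCS1A* (26.3 CPM) above *RBCS3B* (6.38 CPM). *PSAD2* (24.7 CPM) stood above *PSAD1* (6.39 CPM), while *PSAH1* (4.70 CPM) and *PSAH2* (3.29 CPM) differed by less than the spread between libraries. Of the pairs *LHCB2*, *PSAE*, *PSBO*, *PSBQ* and *PETE*, at most 1 gene could be tested.

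Ratios between paralogs set 2 genes of the same library against each other. They were taken for the 9 pairs of tested paralogs after the levels had been seen, and are given without a test. *RBCS3B* over *RBCS1A* was -1.11, -2.58, -0.95 and -1.05 on the log2 scale in *msh-1*, against -4.73, -3.64, -2.65 and -2.70 in WT, where *RBCS3B* had 1 to 9 counts. *LHCB4.3* over *LHCB4.2* was -1.45, -1.92, -2.13 and -1.99 in *msh-1*, against -1.29, -1.12, -1.04 and -0.55 in WT. The groups did not overlap in these 2 pairs. Neighbouring paralogs share sequence, and the counting could split their reads. The longest identical run in the last 300 bases was 37 bases for *LHCB1.2* and *LHCB1.3*, 12 bases for *RBCS2B* and *RBCS3B*, and 8 to 22 bases for the other pairs. Over whole transcripts, *RBCS1B* and *RBCS3B* shared a run of 233 bases and *LHCB1.1* and *LHCB1.3* one of 119 bases.

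The 16 members below the filter are given by their counts, which must be read against the deeper *msh-1* libraries. In 14 of them the mean CPM was higher in *msh-1*, and in 2, *PSBO2* and *PSBY*, higher in WT. The 14 include *LHCA6* and *PETE1*, which had at most 3 counts in any library, too few to give a direction. The share among all genes below the filter was not taken, so nothing is read from the count of 14. *LHCB1.2* (AT1G29910), the neighbour of *LHCB1.1*, had 25, 6, 34 and 36 counts in *msh-1* 1 to 4, against 1, 2, 1 and 0 counts in WT 1 to 4. All WT libraries were at or under the floor of 3 counts per library, so its mean CPM was at least 3.15-fold higher in *msh-1*. DESeq2, which the study used, called it (log2 fold change 3.52, adjusted p = 0.0188). *RBCS2B*, the neighbour of *RBCS3B*, had 9, 3, 28 and 28 counts in *msh-1* and 1, 0, 3 and 0 counts in WT. Its mean CPM was at least 2.22-fold higher in *msh-1*, which rests on *msh-1* 3 and 4. The WT floor is here the mean of 3 counts in each library, 2.01 CPM. For *RBCS2B*, *msh-1* 1 and 2 lay under that floor. In CPM *msh-1* 2 also lay below WT 3, so the groups overlapped.

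*LHCB2.2* had 6, 2, 24 and 27 counts in *msh-1* and 1, 1, 3 and 1 counts in WT. *PSBQ2*, for a protein of the oxygen-evolving complex, had 9, 14, 23 and 29 counts in *msh-1* and 1, 5, 2 and 0 counts in WT. It passed the filter in the 6 libraries without *msh-1* 1 and WT 4, where it was called higher (2.3 ± 0.43 SE, edgeR's adjusted p = 0.00206), and it passed there through *msh-1*. *PSBY* went the other way, with 4, 8, 9 and 12 counts in *msh-1* and 6, 11, 12 and 1 counts in WT, 0.642 to 3.06 CPM against 1.1 to 4.80 CPM. *LHCB6*, the third minor antenna gene, had 10, 6, 20 and 36 counts against 5, 2, 8 and 1 counts in WT, and *LHCA6* and *PETE1* had at most 3 counts in any library.

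**Figure D5:**
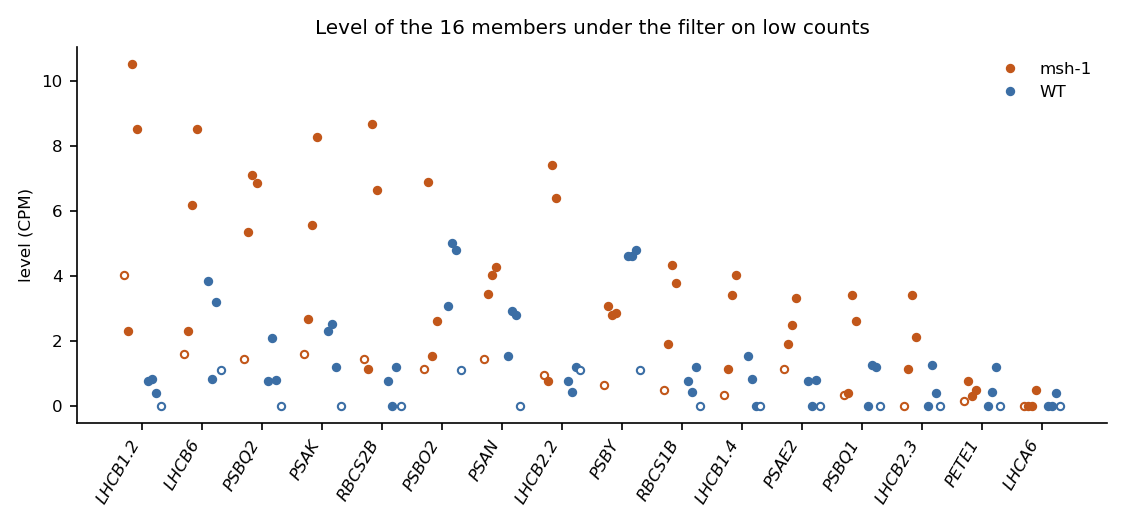
CPM (y axis) of the 16 members below the filter on low counts, ordered by their counts over all libraries (x axis), in *msh-1* (left points of each gene) and WT (right points); open points are *msh-1* 1 and WT 4. *LHCB1.2* lies at 2.29 to 10.5 CPM in *msh-1* and at 0 to 0.837 CPM in WT.

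Among other genes of the pathway, several scarce ones were low in *msh-1* 1 and WT 4, as most members were, and others were not. *PSB28* had 10.59 CPM in *msh-1* 1 and 10.96 CPM in WT 4, and *HCEF1* had 14.44 and 23.01 CPM. Each of these values was the highest of its genotype. The share of genes in either direction was not taken, so no trend is read from the genes named. DESeq2 and limma-voom called none of the Calvin cycle, carrier, chlorophyll, regulator and chloroplast genome genes listed below. Of 15 Calvin cycle genes 11 were tested and none was called in edgeR with 8 libraries, 3 having an unadjusted p under 0.05, all lower in *msh-1*. *CP12-1*, a redox-controlled regulator, was the most abundant, at 139 to 151 CPM in *msh-1* and 127 to 146 CPM in WT, with 139 CPM in *msh-1* 1 and 127 CPM in WT 4. *RPE* and *FBA1*, the next in level, had log2 fold changes of -0.09 and -0.05. *AT3G60750*, which RefSeq gives as transketolase 1, had 4.01, 6.50, 5.57 and 7.34 CPM in *msh-1* and 15.4, 13.8, 14 and 5.48 CPM in WT (log2 fold change -1.17 ± 0.27 SE, edgeR's adjusted p = 0.12). *GAPA* had 1.44, 9.94, 4.02 and 4.26 CPM in *msh-1* and 13.1, 12.6, 6.003 and 0 CPM in WT. *FBA2* had 1.93 and 1.1 CPM in *msh-1* 1 and WT 4, against 5.57 to 10.4 CPM in the other 6 libraries, and *CP12-2* had 1.44 and 1.1 CPM against 2.60 to 19.7 CPM. *AT3G60750* and *CP12-2* (-1.45) were called lower without *msh-1* 1 and WT 4. Those libraries were set aside for their low members, so these calls are not read as support.

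Of 15 further electron carriers, assembly factors and ATP synthase genes, 10 were tested and none was called, with 2 higher and 5 lower at an unadjusted p under 0.05. *PSB27*, an assembly factor of photosystem II, had 79.5 to 91.6 CPM in *msh-1* and 66.2 to 76.7 CPM in WT, without overlap (log2 fold change 0.32 ± 0.10 SE, adjusted p = 0.263). *FED A*, for a leaf ferredoxin, had 35.3 to 45.2 CPM in *msh-1* and 47.1 to 64.7 CPM in WT, also without overlap (-0.41 ± 0.13 SE, adjusted p = 0.283). *PSBTN* had 0.160 CPM in *msh-1* 1 and 0 CPM in WT 4, against 3.85 to 7.27 CPM in the other 6 libraries. *PDE334* was at 34.0 to 41.7 CPM in *msh-1* and 31.8 to 47.0 CPM in WT.

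Genes of chlorophyll itself were taken in 2 lists. Of 24 genes for chlorophyll synthesis 12 were tested and none was called (1 higher at an unadjusted p under 0.05, *FLU*, at 0.50 ± 0.19 SE). *CH1*, for the oxygenase that makes chlorophyll b, led with 35.3 to 38.8 CPM in *msh-1* and 37.0 to 40.6 CPM in WT, followed by *LIN2* and *HEMC*. In sum, the genes of chlorophyll breakdown were far more abundant than the photosynthesis genes. Their 10 genes summed to 3968 to 4515 CPM in *msh-1* and 3985 to 4270 CPM in WT. The stay-green gene *NYE1*, for the enzyme that takes magnesium from chlorophyll a, was alone at 1393 to 1622 CPM in *msh-1* and 1466 to 1548 CPM in WT, above the sum of all 51 members in every library. Its paralog *AT4G11910* (*NYE2* in RefSeq's synonyms) was at 1363 CPM on average and *NYC1*, for chlorophyll b reductase, at 715 CPM. *PPH* was at 489 CPM, and the rest of the list had means from 0.534 (*CLH1*) to 44.5 CPM (*ACD1*), within the range of the members. Of the 8 tested none was called in edgeR (1 lower at an unadjusted p under 0.05, *ACD1*, -0.43 ± 0.13 SE).

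Of 16 light and greening regulators 11 were tested and none was called, with 1 lower at an unadjusted p under 0.05. This was *GUN1*, a plastid protein of plastid-to-nucleus signalling, at 36.2 to 43.3 CPM in *msh-1* and 43.2 to 52.7 CPM in WT (-0.30 ± 0.11 SE, adjusted p = 0.416). The blue light receptor gene *CRY2* had 54.7 to 73.4 CPM in *msh-1* and 59.4 to 81.1 CPM in WT. *PHYA*, for a red and far-red light receptor, had a log2 fold change of 0.20 ± 0.16 (SE). The chloroplast-encoded photosynthesis transcripts, of which 8 of 15 were tested, summed to 682 to 1113 CPM in *msh-1* and 682 to 1012 CPM in WT, and none was called or reached an unadjusted p under 0.05. Among the seed maturation markers *SESA4*, for a seed storage albumin, was called lower (-0.73 ± 0.15 SE, adjusted p = 0.0457), with 594 to 905 CPM in *msh-1* and 1141 to 1759 CPM in WT.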

How the data were processed

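3′RNA-seq of *msh-1* (4 libraries) and WT (4 libraries) was analysed. The authors mapped reads with STAR (2.7.8a in the submitters' processing notes) to TAIR10. They deposited raw counts, as whole numbers, of each gene. Annotation, strandedness and any collapsing by molecular identifiers are not given in the sources used here, so antisense or overlapping genes could share counts. All 51 member IDs matched TAIR10.1.

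edgeR 4.0.16 in R 4.3.3 compared the genotypes over all genes, with TMM scaling, its default count filter and the quasi-likelihood test. A call required a Benjamini-Hochberg adjusted p below 0.05 and more than a 1.5-fold change. The SE was the size of the log2 fold change over the root of its F statistic. Exact two-sided permutation tests used log2(CPM + 0.5). Alternatives were other scaling factors, DESeq2 1.42.0, limma-voom (limma 3.58.1), other filters, equal depth (959004 counts), a replicate block and libraries left out. The code was tested on simulated data.

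Values in each library are given for the 10 most abundant members, the 5 with the smallest p and paralog families; others, and the paralog ratios, were chosen after their values were seen. Of the other nuclear pathway lists, called genes, the 3 most abundant and the smallest p are named. The chloroplast-encoded list is given by its sum, and of the marker lists only some genes are named. *GAPA*, *FBA2*, *PSBTN*, *HCEF1*, *PSB28* and the markers without a count were named after their values were seen. Members and lists were chosen with earlier results of these data known. ChIRP-seq and ChIDP-seq were left out.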

Additional observations from a re-analysis of the deposited data

Results flagged for a closer look

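In groups of 4 libraries, a library was singled out where its gap to the nearest of the others took up most of the group's range. This held in 10 of 66 groups of values looked at, and chance gives it in about 1 in 20 groups. The groups are not independent, since sums contain their genes.

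3 sets of values came from *msh-1* 1 and the members: *LHCB1.3* at 9.95 CPM (34.6 to 39.6 CPM in the other *msh-1* libraries), the summed level of all 51 members at 298 CPM (614 to 670 CPM), and that of the photosystem I subunits at 45.9 CPM (99.0 to 107 CPM). The silique wall markers were at 121 CPM in *msh-1* 1 (282 to 312 CPM). In WT 4, *PSBW* was at 4.38 CPM (26.4 to 28.5 CPM in the other WT libraries) and the photosystem II subunits summed to 54.8 CPM (190 to 204 CPM). In *msh-1* 2, the chloroplast-encoded transcripts summed to 1113 CPM (682 to 744 CPM in the other *msh-1* libraries) and the senescence markers to 312 CPM (71.1 to 107 CPM). *LHCB4.2* was at 22.0 CPM in *msh-1* 3 (12.8 to 13.2 CPM), and *LHCB4.1* at 64.4 CPM in WT 2 (43.6 to 46.0 CPM). What sets these libraries apart was not tested.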

How the results depend on the processing

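The count of called members depended on the libraries and on the filter. It was 0 with 8 libraries, and also 0 with DESeq2 size factors, upper-quartile factors, library totals alone, a stricter filter, limma-voom and equal depth. It was 9 of 38 without *msh-1* 1 and WT 4, where 280 of 11088 tested genes were called. It was 3 of 51 with the DESeq2 test (89 of 23028 genes) and 10 of 51 with no filter on low counts (438 of 23032 genes). Leaving out 1 library gave 0 to 6 called members: 6 without *msh-1* 1, 3 without *msh-1* 2, 1 without WT 4 and none in the other 5 cases. Without *msh-1* 1, 210 of 11278 tested genes were called, and without *msh-1* 2, 154 of 11196. Without WT 4 it was 141 of 11268 genes, against 45 of 10902 with all 8 libraries. With the replicate number as a block 1 member was called (*RBCS3B*, 2.25, edgeR's adjusted p = 0.0490), where 24 of 10902 genes were. The numbers do not pair the libraries: same-numbered libraries correlated at -0.22, 0.15, 0.06 and -0.09 over 10902 genes. *RBCS3B* was called in 6 of 18 alternatives, *LHCB5* and *RCA* in 4 each. *RBCS3B* and *LHCB1.1* were not tested with the stricter filter or at equal depth, and *LHCB5* was not tested at equal depth. The median log2 fold change stayed above 0 in every alternative, with 0.01 as its lowest value, without *msh-1* 4. Of 17 members recomputed in the alternatives whose filter they passed, 2 near 0 changed sign: *RBCS1A* (0.02) was -0.0891 with limma-voom, -0.0046 at equal depth and -0.15 to 0.30 with 1 library left out, and *LHCA4* (-0.05) was 0.0809 with DESeq2, 0.15 at equal depth, 0.0866 without both outlying libraries and -0.26 to 0.27 with 1 left out. Of the other tested members, *PSAH1* and *PSAL* (-0.04 and -0.17) were 0.41 and 0.05 without both outlying libraries. The causes were not tested. Low counts limit the members: 21 of 35 had at most 3 counts in WT 4.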
